A study of Homo sapiens with 6 samples.

Results

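The 42 genes described here build the protein folding and quality control machinery of the endoplasmic reticulum (ER). They were chosen by symbol and not by a cut on their values, though earlier results of these data were known. They comprise 2 stress sensors, 11 genes of the BiP chaperone system, 3 lectin chaperone genes, 9 disulfide bond enzymes, 3 prolyl isomerases and 14 genes of ER-associated degradation (ERAD). All 42 matched 1 row each among the 57820 gene rows, and all 42 passed the filter on low counts that left 17679 genes to test. Poly-A RNA was sequenced from U266, an established human line of multiple myeloma, in 3 control libraries and 3 libraries of cells transduced with a lentiviral vector that carries c-MYC behind the EF1A promoter (here MYC libraries). The labels leave unsaid whether the control cells carry a vector, whether the MYC cells are a pool or a clone, or whether the libraries of a group come from separate cultures. The p-values therefore measure only the spread between these libraries, which may be technical, and an effect of transduction cannot be told apart from one of MYC.

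Proteins bound for secretion fold in the ER, and an antibody-secreting plasma cell, the cell from which myeloma arises, keeps this machinery at a high level. The sensors encoded by ERN1 (IRE1), EIF2AK3 (PERK) and ATF6, respond to unfolded protein and raise chaperone and degradation genes through the factors XBP1, ATF4 and cleaved ATF6, a program called the unfolded protein response. Glycoproteins that fail to fold are trimmed, recognised by lectins, passed through a membrane complex around the ubiquitin ligase HRD1 (SYVN1) and pulled into the cytosol by the ATPase VCP for destruction by the proteasome.

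Some of the promoters carry a response element through which ATF6 and XBP1 act, and a few of these are shown. The genes were listed as part of the unfolded protein response, so the choice was not independent of these elements. The shares below are therefore a description and not a test. Of the 42 genes, 38 matched the RefSeq promoter table (GRCh38.p14), which gives windows of 300 bases, 250 before and 50 after a gene's start. PDIA3, UFD1, DERL1 and DERL3 did not match. Motifs were searched on both strands. The ER stress response element ERSE (CCAAT, then 9 bases of any kind, then CCACG) was found in 7 of the 38 genes (18.4%; CALR, CANX, CRELD2, ERO1B, HSP90B1, HSPA5 and PDIA6), against 0.0916% of 27305 genes with such a window and 0.146% of the 11680 tested genes among them. Its variant ERSE-II (ATTGG, then any 1 base, then CCACG) was found in 3 (7.89%; HERPUD1, HYOU1 and SDF2L1), against 0.0696% of all. In the 5 windows below, each written 5′ to 3′ on the strand of its gene, capitals mark the fixed bases of the element. CANX, PDIA6 and CALR have the highest control TPM among ERSE genes that the rule for printing allowed, and HSPA5 and HERPUD1 were added after values were seen, as the BiP gene and an ERSE-II gene that fell.
CANX (chr5:179698679-179698978, plus strand): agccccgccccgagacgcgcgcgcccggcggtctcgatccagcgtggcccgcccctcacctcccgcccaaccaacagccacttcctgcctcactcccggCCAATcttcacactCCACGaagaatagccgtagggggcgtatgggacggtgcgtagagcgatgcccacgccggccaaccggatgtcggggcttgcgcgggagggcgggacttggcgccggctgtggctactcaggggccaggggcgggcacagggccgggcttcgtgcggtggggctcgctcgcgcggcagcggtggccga
PDIA6 (chr2:10812736-10813035, minus strand): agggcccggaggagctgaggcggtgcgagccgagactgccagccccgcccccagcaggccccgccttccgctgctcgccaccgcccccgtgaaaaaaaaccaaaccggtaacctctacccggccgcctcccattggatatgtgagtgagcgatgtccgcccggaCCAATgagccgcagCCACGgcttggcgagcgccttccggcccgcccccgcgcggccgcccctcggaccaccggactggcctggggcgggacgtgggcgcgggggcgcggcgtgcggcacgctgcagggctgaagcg
CALR (chr19:12938359-12938658, plus strand): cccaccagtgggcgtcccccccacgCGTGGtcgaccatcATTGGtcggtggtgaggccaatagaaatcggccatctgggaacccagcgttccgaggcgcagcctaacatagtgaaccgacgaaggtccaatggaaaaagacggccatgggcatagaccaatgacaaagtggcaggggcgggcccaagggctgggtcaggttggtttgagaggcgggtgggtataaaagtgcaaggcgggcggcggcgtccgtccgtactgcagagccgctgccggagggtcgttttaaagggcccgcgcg
HSPA5 (chr9:125241294-125241593, minus strand): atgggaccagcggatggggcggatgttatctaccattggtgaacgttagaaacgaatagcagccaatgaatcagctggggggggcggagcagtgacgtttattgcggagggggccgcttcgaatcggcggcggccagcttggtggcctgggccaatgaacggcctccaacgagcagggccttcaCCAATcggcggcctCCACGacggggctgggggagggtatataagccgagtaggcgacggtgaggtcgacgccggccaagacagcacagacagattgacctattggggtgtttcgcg
HERPUD1 (chr16:56931892-56932191, plus strand): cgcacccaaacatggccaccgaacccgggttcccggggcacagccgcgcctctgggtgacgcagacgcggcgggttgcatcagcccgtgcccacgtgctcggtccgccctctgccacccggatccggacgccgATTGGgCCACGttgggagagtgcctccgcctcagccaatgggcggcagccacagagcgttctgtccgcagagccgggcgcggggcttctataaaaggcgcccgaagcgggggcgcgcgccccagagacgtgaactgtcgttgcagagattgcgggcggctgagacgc
The element begins 151 bases before the start in CANX, 86 in PDIA6, 66 in HSPA5 and 117 in HERPUD1. In CALR it lies on the opposite strand, so the capitals show its reverse complement, from 225 bases before the start. A match to letters is a description of the window and not a measured binding site.

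The introduced gene checks the labels. MYC stood at 3.91, 4.16 and 4.51 CPM (counts scaled to a common library total with TMM factors) in control libraries 1 to 3 and at 105, 110.3 and 92.1 CPM in MYC libraries 1 to 3, a log2 fold change of 4.60 ± 0.10 (SE; adjusted p = 9.71e-08). The gene tables do not separate the vector's transcript from the endogenous one. Library depth, as the sum of expected counts, lay between 27139978 and 158667309. Principal component 1 of log2 CPM held 79.1% of the variance and split control from MYC. Plasma cell markers (8 genes) summed to 7014 to 7410 TPM in control and 3967 to 4496 TPM in MYC libraries, with 6 of 8 called lower and 1, JCHAIN, higher. The immunoglobulin heavy chain gene IGHE alone went from 3106, 3372 and 3131 TPM to 1003, 800.5 and 499.8 TPM. Lists of 4 markers each for other cell types were low in every library. B cell markers summed to 0.320 to 0.470 TPM in control and 0.520 to 0.950 TPM with MYC, all 4 genes under 1 TPM throughout. T and NK cell markers summed to 8.32 to 10.8 and 12.1 to 14.3 TPM (2 called higher, CD3D and CD3E, and CD2 lower), myeloid markers to 1.61 to 2.30 and 1.01 to 1.59 TPM, stromal markers to 4.05 to 4.43 and 3.77 to 3.96 TPM, and epithelial markers to 4.0 to 4.78 and 7.59 to 8.69 TPM (KRT18 higher, EPCAM and CDH1 at or near 0). The part of these shifts in the results below was not tested. In bulk RNA, fewer cells of a kind and less RNA per cell cannot be told apart.

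As a family, the genes were more often lower than higher with MYC, but they did not move as a block. Of the 42, 20 were called lower (47.6%) and 10 higher (23.8%) by edgeR at an adjusted p under 0.05, and 12 were not called. Over all genes tested the same comparison called 32.1% lower, 28.8% higher and 60.8% in either direction. The median log2 fold change of the 42 was -0.18, beside -0.02 over all genes, and single genes ran from -1.58 (SDF2L1) to 0.88 (PDIA3). In CPM, 23 of the 42 had all 3 MYC libraries below all 3 controls (35.1% of all genes tested) and 11 had them above (32.1%), where the groups of 67.1% of all genes did not overlap. The ERAD genes counted 10 lower and 3 higher of 14, the BiP system 5 lower and none higher of 11 (MZB1, the only BiP system gene with a log2 fold change above 0.11, had an adjusted p of 0.0555), the disulfide enzymes 3 and 3 of 9, and the lectin chaperones 2 higher and none lower of 3.

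**Figure D1:**
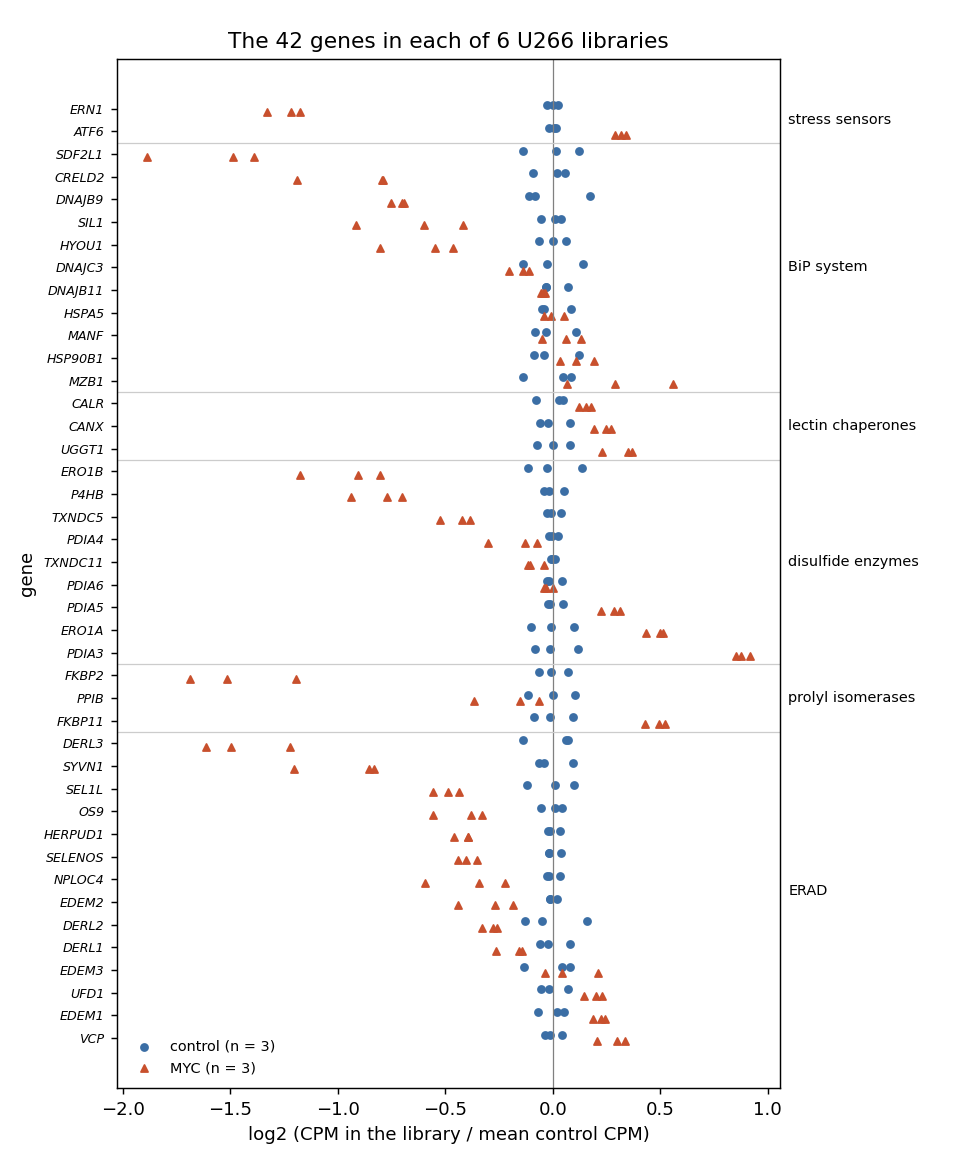
CPM of each of the 42 genes in each library, on the x axis as log2 of its ratio to the mean of the 3 controls, with genes on the y axis grouped by role and ordered by mean change within a role (circles, control; triangles, MYC; n = 3 each). The MYC libraries of 23 genes lie wholly to the left of the controls and those of 11 wholly to the right, while HSPA5, HSP90B1 and PDIA6 overlap.

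The fold changes moved with base composition in these libraries, which is given here because it touches several genes below. Across all genes tested, log2 fold change fell with the GC content of a gene's transcripts (Spearman correlation -0.56, across genes, which are not independent), and across the 42 it was -0.41. Among genes of at least 55% GC, 70.8% of all genes tested were called lower, with a median log2 fold change of -0.74. The 11 members in that range counted 8 lower and 0 higher, with a median of -0.80. Among genes under 45% GC, 8.43% of all were lower and 47.8% higher, with a median of 0.23. The 12 members there counted 4 lower and 4 higher, with a median of 0.01. With each library's trend on GC removed (the GC offset), 26 of the 42 (61.9%) were called lower and 7 (16.7%) higher, beside 32.7% and 25.8% of all genes (58.5% in either direction), and the median was -0.22, beside -0.06. The 2 fits shared 19 lower and 5 higher calls, and no gene was called in opposite directions. The offset also removes any change tied to GC for another reason, and which part of the trend is technical was not tested.

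**Figure D2:**
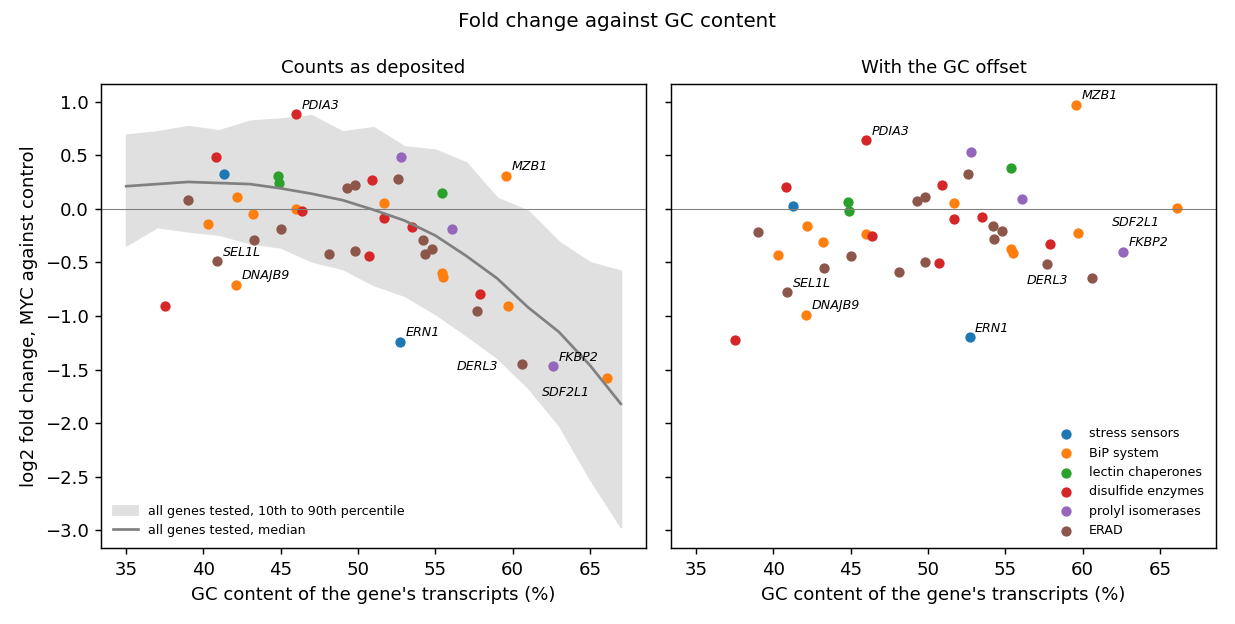
Log2 fold change (y axis) of the 42 genes against the GC content of their transcripts in percent (x axis), for the counts as deposited (left) and with the GC offset (right), coloured by role. The grey line and band, drawn at the left only, give the median and the 10th to 90th percentile of all genes tested. SDF2L1 sits near the line at the left and at 0.01 at the right, while ERN1, DNAJB9 and SEL1L lie below the band at the left and stay low at the right.

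Of the sensors, ERN1 fell and ATF6 was slightly higher. ERN1, the kinase and endoribonuclease that splices XBP1 mRNA, stood at 431, 422 and 438 CPM in the controls and at 185, 190.5 and 171 CPM with MYC. The groups lay far apart, with a log2 fold change of -1.24 ± 0.06 (SE; adjusted p = 2.09e-06), or -1.20 with the GC offset. ATF6, a membrane-bound transcription factor released by cleavage in the Golgi, went from 90.1, 87.9 and 89.4 CPM to 109, 113 and 111 CPM (log2 fold change 0.32 ± 0.05, adjusted p = 0.000643). All 3 MYC libraries were above the controls, but with the GC offset the value was 0.03 and not called (adjusted p = 0.547).

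The central chaperone was not called, while several of its partners fell. HSPA5 (BiP), the ER HSP70 that binds unfolded chains and holds the sensors inactive, stood at 1306, 1189 and 1195 CPM in control and 1221, 1197 and 1277 CPM with MYC. The groups overlapped and the log2 fold change was 0.00 ± 0.06 (adjusted p = 0.983), or -0.24 and called lower with the GC offset (adjusted p = 0.00474). HSP90B1 (GRP94), the ER HSP90, likewise overlapped, with means of 924 ± 70.4 and 999 ± 55 CPM (SD, n = 3 each; log2 fold change 0.11, adjusted p = 0.224) and -0.16 with the GC offset (adjusted p = 0.0175).

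HYOU1 (GRP170), a chaperone that also exchanges the nucleotide of BiP, went from 424, 462 and 443 CPM to 321, 303 and 254 CPM, with no overlap (log2 fold change -0.60 ± 0.09, adjusted p = 0.000477). DNAJB9 (ERdj4), a J-domain partner of BiP that represses IRE1, fell from 124, 102 and 104 CPM to 65.3, 68.1 and 67.8 CPM (-0.71 ± 0.08, adjusted p = 0.000108). DNAJB9 is AT-rich, with 42.1% GC, and with the GC offset its fall was -0.99. The J-domain genes DNAJB11 (log2 fold change -0.05) and DNAJC3 (-0.14) were not called, and with the GC offset both were lower, at -0.31 and -0.43. DNAJC3 was also called lower without control replicate 2 (-0.22, adjusted p = 0.0339). CRELD2, a secreted protein induced by ER stress, fell from a mean of 14.8 ± 0.795 to 7.85 ± 1.18 CPM (-0.91 ± 0.11). With the GC offset its fall was -0.23 and still called (adjusted p = 0.0113). MANF, a stress-induced protein that binds BiP, was not called in either fit (0.05 in both).

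SDF2L1, which acts with J-domain proteins to keep chains soluble, had the largest fall of the 42 as deposited, from 22.8, 24.6 and 20.5 CPM to 8.62, 8.07 and 6.11 CPM (-1.58 ± 0.13, adjusted p = 2.60e-05). It also has the highest GC content of the 42, 66.1%, and with the GC offset its change was 0.01 (adjusted p = 0.902). MZB1, a B-lineage co-chaperone of GRP94 that aids antibody assembly, was not called as deposited and was higher with the GC offset. It stood at 16.9, 19.2 and 19.7 CPM in control and 27.4, 22.7 and 19.5 CPM with MYC, so that MYC library 3 lay within the controls (0.31 ± 0.12, adjusted p = 0.0555). With the GC offset it was 0.97 (adjusted p = 1.88e-06), and without MYC replicate 3 it was 0.41 and called (adjusted p = 0.00430).

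The lectin chaperones hold glycoproteins during folding. CANX (calnexin) went from 1191, 1082 and 1112 CPM to 1287, 1361 and 1340 CPM (log2 fold change 0.24 ± 0.06, adjusted p = 0.0108), and UGGT1, which re-tags unfolded glycoproteins for another round, from 209, 188 and 198 CPM to 232, 252 and 256 CPM (0.31 ± 0.06, adjusted p = 0.00266). Neither pair of groups overlapped, and with the GC offset neither was called, at -0.02 and 0.06. The CANX call was also lost without control replicate 3 (0.22, adjusted p = 0.0524). CALR (calreticulin), the soluble counterpart of CANX, had means of 642 ± 29.2 and 713 ± 12.6 CPM and was not called (0.15, adjusted p = 0.0531). It was called without MYC replicate 3 (0.17, adjusted p = 0.0404) and at 0.38 with the GC offset (adjusted p = 0.000203).

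Among the disulfide enzymes the members split. PDIA3 (ERp57), the isomerase that works with calnexin and calreticulin on glycoproteins, rose most of the 42, from 116, 101 and 106 CPM to 193, 196 and 202 CPM (log2 fold change 0.88 ± 0.06, adjusted p = 1.45e-05), and stood at 0.64 with the GC offset. PDIA3 has a pseudogene, PDIA3P1, at 12.8 CPM against 152 CPM for PDIA3 over the 6 libraries. Reads shared between them are split by estimate, which adds uncertainty to the level of PDIA3. ERO1A, an oxidase that re-oxidises the isomerases, rose from 62.4, 54.3 and 57.8 CPM to 78.6, 82.9 and 82.2 CPM (0.48 ± 0.07, adjusted p = 0.000293). Its paralog ERO1B fell from 1.69, 1.51 and 1.42 CPM to 0.681, 0.822 and 0.883 CPM (-0.91 ± 0.15, adjusted p = 0.000913), so that the scarcer of the 2 oxidase transcripts became scarcer. Both directions held with the GC offset, at 0.20 and -1.22. ERO1B overlaps GPR137B, at 11.7 CPM on the opposite strand, which this kit cannot separate.

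TXNDC5 (ERp46), a thioredoxin-domain isomerase abundant in plasma cells, fell from 4976, 4755 and 4824 CPM to 3712, 3624 and 3367 CPM (-0.44 ± 0.07, adjusted p = 0.000557). It is the most abundant gene of the 42. P4HB (PDI), the founding member of the family, fell from 1101, 1175 and 1119 CPM to 695, 663 and 591 CPM (-0.80 ± 0.07, adjusted p = 4.31e-05), a value that depended on transcript length as described below. PDIA5, reported to reduce ATF6, was higher at 14.5 ± 0.427 against 12 ± 0.291 CPM (0.27 ± 0.07, adjusted p = 0.00804). Its call was lost without control replicate 3 (0.25, adjusted p = 0.0516). PDIA5 overlaps SEC22A on the same strand, at 9.6 CPM against 13.3 CPM for PDIA5 over the 6 libraries, which limits its value. PDIA4, PDIA6 and TXNDC11 were not called, with log2 fold changes of -0.17, -0.02 and -0.09. PDIA6 (-0.25) and TXNDC11 (-0.10) were called lower with the GC offset. PDIA4 was called lower without control replicate 1 (-0.20, adjusted p = 0.0460) or MYC replicate 1 (-0.21, adjusted p = 0.0346) and on log2(TPM + 1) (-0.21, adjusted p = 0.0129). TXNDC11 stood at -0.32 on log2(TPM + 1) (adjusted p = 0.00207).

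The prolyl isomerases, which turn proline bonds in folding chains, also split. FKBP2 fell from 20.3, 22.3 and 21.1 CPM to 9.27, 7.42 and 6.58 CPM (-1.47 ± 0.12, adjusted p = 2.23e-05), and with the GC offset, at 62.6% GC, by 0.40 on the log2 scale (adjusted p = 0.000500). FKBP11 rose from 37.8, 40.8 and 35.9 CPM to 54.8, 53.8 and 51.5 CPM (0.48 ± 0.07, adjusted p = 0.000311), with 0.53 under the GC offset. PPIB (cyclophilin B) was not called, at -0.19 with an adjusted p of 0.0984, and was called lower without control replicate 1 (-0.27) or MYC replicate 1 (-0.26). It was also called lower on log2(TPM + 1) (-0.21, adjusted p = 0.0318). With the GC offset PPIB turned sign, to 0.09, and was not called (adjusted p = 0.0971).

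Of the roles, ERAD had the most genes called lower. Of its 14 genes, 10 were lower as deposited and 11 with the GC offset, beside 32.1% and 32.7% of all genes. SYVN1, the ubiquitin ligase HRD1, went from 289, 322 and 294 CPM to 169.5, 167 and 131 CPM (log2 fold change -0.95 ± 0.10, adjusted p = 8.41e-05). SEL1L, its adaptor, went from 879, 755 and 825 CPM to 557, 585 and 605 CPM (-0.49 ± 0.07, adjusted p = 0.000452). SEL1L has 40.9% GC, a range in which the median gene was higher, and with the GC offset its fall was -0.78. HERPUD1, a stress-induced scaffold of the complex whose ERSE-II is printed above, fell from 639, 618 and 614 CPM to 475, 474 and 454 CPM (-0.42 ± 0.05, adjusted p = 0.000239).

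DERL3, the derlin most tied to secretory cells, fell from 29.7, 34.1 and 34.3 CPM to 14, 11.6 and 10.7 CPM (-1.45 ± 0.11, adjusted p = 1.67e-05), and by 0.65 on the log2 scale with the GC offset. SELENOS, which recruits VCP to the membrane, fell from 148 ± 3.26 to 113 ± 3.56 CPM (-0.39 ± 0.05), and the lectin OS9 from 366 ± 13.1 to 274 ± 22.2 CPM (-0.42 ± 0.07). The derlins DERL1 and DERL2 showed smaller falls. DERL1 stood at -0.19 ± 0.06 (adjusted p = 0.0285) and lost its call without control replicate 3 (adjusted p = 0.0628), MYC replicate 2 (0.0555) or MYC replicate 3 (0.0649), and with a replicate block. DERL2 stood at -0.29 ± 0.08 (adjusted p = 0.0164) and lost its call without MYC replicate 2 (adjusted p = 0.0683). Its call was also lost on log2(TPM + 1) (-0.23, adjusted p = 0.138) and with an offset for effective length (-0.21, adjusted p = 0.104). Overlaps with other genes limit some of these values, since the kit does not mark strand. SYVN1 overlaps FAU on the same strand (273 CPM) and MRPL49 (152 CPM), DERL3 overlaps SMARCB1 (97.7 CPM), DERL2 overlaps MIS12 (24.5 CPM), and among the chaperones DNAJB9 overlaps THAP5 (86.9 CPM) and PNPLA8 (66.6 CPM) and CRELD2 overlaps ALG12 (9.34 CPM).

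The genes of the steps before and after the complex gave mixed values. The EDEM mannosidase genes, which mark glycoproteins for degradation, gave 3 different outcomes. EDEM1 was higher (131 ± 5.56 to 153 ± 2.85 CPM, log2 fold change 0.22 ± 0.05, adjusted p = 0.00780) and not called with the GC offset (0.11), EDEM2 was lower (-0.29 ± 0.07, adjusted p = 0.00834) in both fits, and EDEM3 was not called as deposited (0.08) and lower with the GC offset (-0.22). VCP, the ATPase that extracts substrates, rose from 502, 530.1 and 509 CPM to 649, 633 and 593 CPM (0.28 ± 0.06, adjusted p = 0.00329), and by 0.32 with the GC offset. Its cofactor UFD1 was higher (0.19 ± 0.06, adjusted p = 0.0146) but not with the GC offset (0.07) or without control replicate 1 (adjusted p = 0.0579), control replicate 3 (0.0764) or MYC replicate 2 (0.0609). NPLOC4, the other cofactor, was lower (-0.38 ± 0.09, adjusted p = 0.00617), a value that also depended on transcript length.

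**Figure D3:**
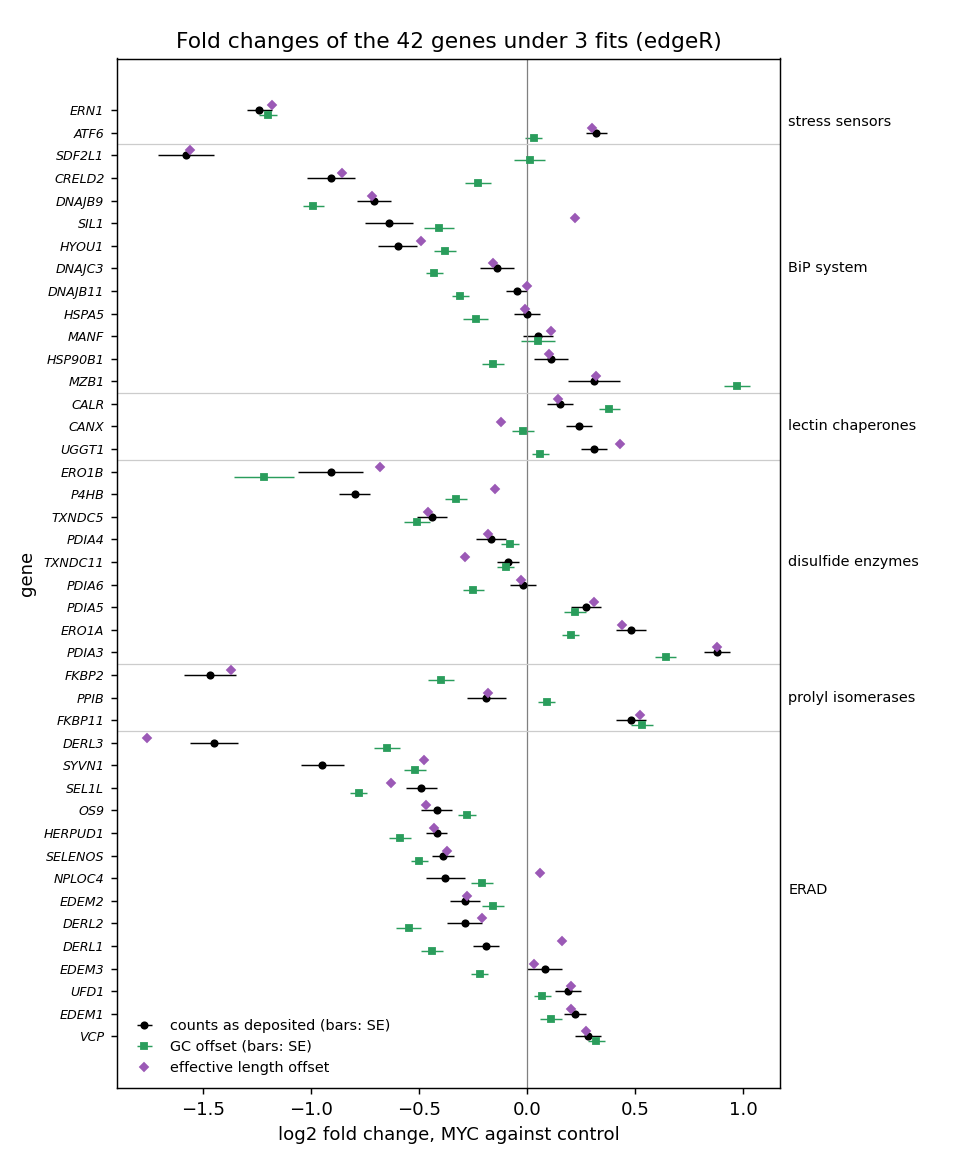
Log2 fold change of MYC against control (x axis) for the 42 genes (y axis, grouped by role) from the counts as deposited (circles), with the GC offset (squares) and with an offset for effective length (diamonds), with bars for the SE of the first 2. SYVN1, SEL1L, HERPUD1, OS9, SELENOS and DERL3 lie left of 0 in all 3, and PDIA3, ERO1A, FKBP11, PDIA5 and VCP right of 0.

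Transcript length changed between the groups for a few genes. The tables give a mean transcript length per gene and library, weighted by the isoforms the authors' program assigned. Its groups did not overlap for 10 genes with shorter and 7 with longer transcripts in MYC libraries, beside 13.7% and 11.6% of all genes (25.3% either way). At a ratio of 1.2 or more, a threshold chosen after the values were seen, 3.73% of all genes tested were shorter and 1.96% longer. Of the 42, SIL1, P4HB, SYVN1, NPLOC4 and DERL1 were shorter by that measure, and CANX and DERL3 longer. The effective length of SIL1 and P4HB differed by over 1.5 times, as it did for 2.51% of all genes. P4HB went from 2034, 1926 and 1936 bases to 1502, 1371 and 1148 bases. SIL1, a second nucleotide exchanger of BiP, went from 1440, 1303 and 1389 bases to 962, 831 and 788 bases. A gene counted over shorter transcripts gets fewer reads per molecule, so these genes are also given per length.

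SIL1 was called lower in CPM (23.8, 25.4 and 24.9 against 18.5, 16.3 and 13.1 CPM; -0.64 ± 0.11, adjusted p = 0.00142), whereas in TPM, which is per transcript length, it stood at 25.9, 28.9 and 27.7 against 30.4, 33.0 and 30.7 TPM, with the MYC libraries all above the controls. On log2(TPM + 1), where a difference is on that scale, it was 0.18 and not called (adjusted p = 0.0557). P4HB stood at 808, 855 and 851 against 659, 713 and 847 TPM, with overlapping groups, and its difference of -0.19 on log2(TPM + 1) was not called (adjusted p = 0.142). NPLOC4 (90.0 ± 6.14 against 92.0 ± 6.32 TPM) and DERL1 (156 ± 6.03 against 170.1 ± 8.35 TPM) were likewise not called in TPM. With the effective length offset DERL1 was called higher (0.16, adjusted p = 0.0339), the opposite of its call in counts. CANX had longer transcripts, 2495 against 3117 bases in the mean, and its TPM overlapped between groups (644 ± 15.5 against 584 ± 88.1). SYVN1 was still lower per length, at 165, 191 and 184 against 122, 135 and 122 TPM.

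Whether the length shift is a change of isoform or of coverage along the transcript was not tested. The calls that held in counts, with the GC offset, in TPM and with the length offset were 14 lower, where 18.0% of all genes tested were lower in all 4 fits (ERN1, HYOU1, DNAJB9, CRELD2, TXNDC5, ERO1B, FKBP2, EDEM2, OS9, DERL3, SEL1L, SYVN1, HERPUD1 and SELENOS), and 5 higher, where 16.4% of all were (PDIA3, PDIA5, ERO1A, FKBP11 and VCP). Taken singly, in TPM 29.7% of all genes tested were lower and 21.3% higher (51.0% together), and with the length offset 29.0% and 26.1% (55.1% together). Of the 14 ERAD genes, 7 were lower in TPM and 7 with the length offset.

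**Figure D4:**
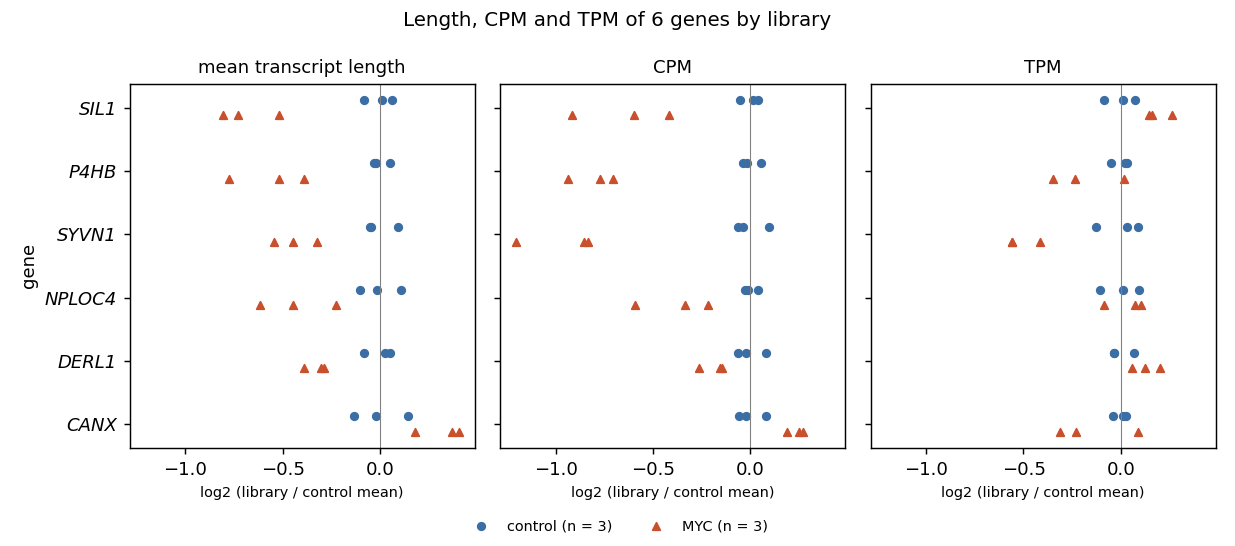
Mean transcript length (left), CPM (middle) and TPM (right) of 6 genes in each library, on the x axes as log2 of the ratio to the mean control value (circles, control; triangles, MYC; n = 3 each). SIL1 and NPLOC4 lie left of the controls in length and CPM but not in TPM, while SYVN1 stays left in all 3.

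Levels could be set side by side in TPM. TXNDC5 held 23.3% of the summed control TPM of the 42 and ranked 65 among all genes by mean control TPM, the only one of the 42 in the first 100. Below it in control came P4HB (838 TPM), PPIB (735), CANX (644), HERPUD1 (580.4), PDIA6 (542), CALR (506), HSP90B1 (505) and HSPA5 (433). In that order, HERPUD1 and PDIA6, PDIA6 and CALR, CALR and HSP90B1, and HSP90B1 and HSPA5 overlapped between genes over the 3 control libraries, while the others did not overlap their neighbours. The scarcest was ERO1B at 0.480 TPM. The 42 genes together summed to 10067, 9605 and 9910 TPM in control and 8213, 8377 and 8874 TPM with MYC. The means were 9861 ± 235 and 8488 ± 344 TPM (SD, n = 3 each), and the groups did not overlap. A large part of this difference lay in TXNDC5 alone, which went from 2296 ± 127 to 1636 ± 4.84 TPM.

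**Figure D5:**
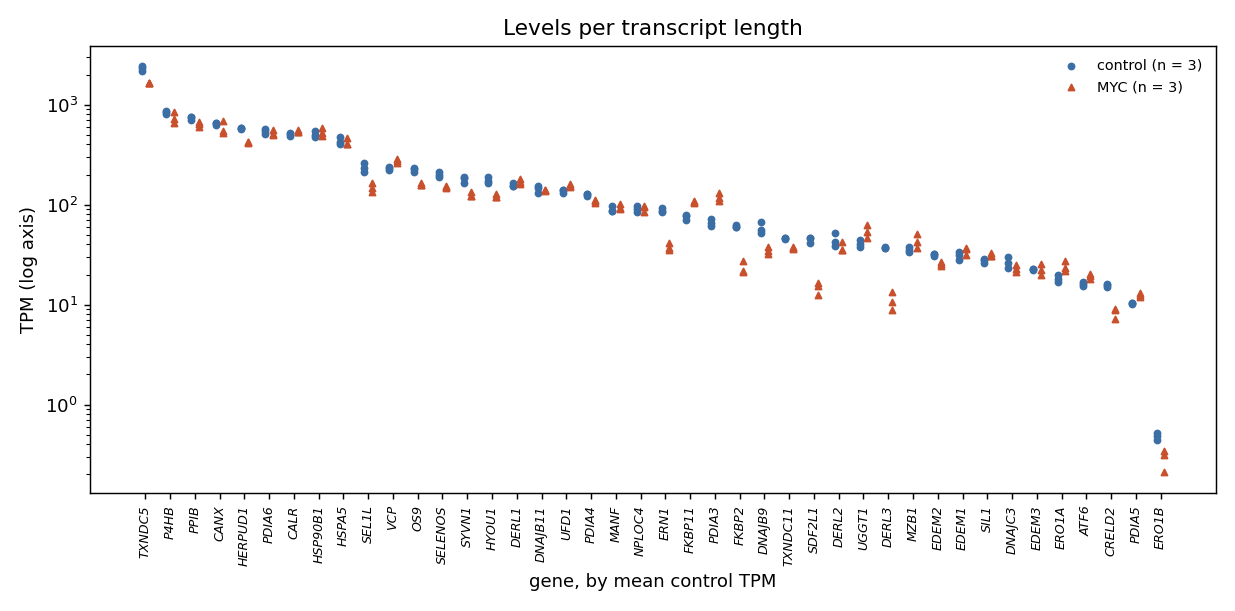
TPM (y axis, log scale) of each of the 42 genes (x axis, ordered by mean control TPM) in each library (circles, control; triangles, MYC; n = 3 each). TXNDC5 stands apart at the top and ERO1B at the bottom, and the abundant chaperones HSP90B1 and HSPA5 overlap between groups.

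The genes that carry a stress element did not share one direction. The counts below are small and stand beside 32.1% lower and 28.8% higher over all genes tested, or 32.7% and 25.8% with the GC offset. Whether any motif goes with a direction was not tested. Of the 7 with ERSE, CANX was called higher, CRELD2 and ERO1B lower, and CALR, HSP90B1, HSPA5 and PDIA6 were not called. Of the 7, 5 were lower with the GC offset (CRELD2, ERO1B, HSP90B1, HSPA5 and PDIA6), CALR higher and CANX not called. The 3 with ERSE-II were all called lower, HERPUD1 at -0.42, HYOU1 at -0.60 and SDF2L1 at -1.58, of which SDF2L1 was not called with the GC offset. The XBP1 motif UPRE, TGACGTGG, was found in 4 of the 38 (10.5%, against 0.927% of all), of which HYOU1 and TXNDC5 were lower, VCP higher and TXNDC11 not called. TXNDC11 was lower with the GC offset. The E-box CACGTG, which MYC with MAX and many other factors can bind, was found in 8 of the 38 (21.1%), against 8.77% of all and 12.3% of tested genes. CANX, FKBP11 and PDIA5 of these were higher, DNAJB9, HERPUD1 and SELENOS lower, and HSP90B1 and MZB1 not called. HSP90B1 was lower, MZB1 higher and CANX not called with the GC offset. The E-box in a window says nothing of whether MYC was bound there.

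Other genes of the pathway gave a similar mixture. Of a list of 76 such genes, 73 were tested, and 36 were called lower and 20 higher, with a median log2 fold change of -0.18, beside 32.1% and 28.8% of all genes and a median of -0.02. With the GC offset these counts were 44 and 13 (32.7% and 25.8% of all genes), and on log2(TPM + 1) 35 and 10 (29.7% and 21.3%). The signalling arms of the response were mostly lower, 11 of 14, with 2 higher. XBP1, the factor that IRE1 splices, went from 1042, 944 and 959 CPM to 792, 737 and 732 CPM (log2 fold change -0.38, adjusted p = 0.00113; -0.55 with the GC offset). Gene tables do not tell its spliced from its unspliced form. EIF2AK3 (PERK) fell from 151, 138 and 143 CPM to 99.6, 102 and 106 CPM (-0.49, adjusted p = 0.000133), and ATF6B, the paralog of ATF6, from 166, 181 and 182 CPM to 111, 90.0 and 75.0 CPM (-0.94, adjusted p = 0.000272).

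Downstream of PERK, ATF4 had means of 1222 ± 11.7 and 1116 ± 26.9 CPM and was not called (-0.13, adjusted p = 0.0707). It was called lower without control replicate 1 (-0.15, adjusted p = 0.0484). DDIT3 (CHOP), a stress factor, fell from 113, 128 and 126 CPM to 60.3, 59.4 and 60.6 CPM (-1.02, adjusted p = 6.22e-06). PPP1R15A (GADD34), which recruits a phosphatase to reverse eIF2α phosphorylation, fell from 121, 132 and 124 CPM to 32.8, 30.2 and 29.4 CPM (-2.03, adjusted p = 3.19e-07; -1.56 with the GC offset). FICD, which modifies BiP with AMP, fell from 20.1 ± 0.441 to 6.40 ± 0.668 CPM (-1.66, adjusted p = 3.54e-06). RTCB, the ligase that joins the XBP1 exons cut by IRE1, rose from 75.7 ± 1.61 to 109.9 ± 1.44 CPM (0.54, adjusted p = 4.24e-05). MBTPS2, a protease that cleaves ATF6, was called higher (0.17, adjusted p = 0.0274) and, with the GC offset, lower (-0.12, adjusted p = 0.0309).

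The other folding genes counted 11 lower and 10 higher of 26 tested, beside 32.1% and 28.8% of all genes. FKBP7, an ER prolyl isomerase, rose from 3.44 ± 0.235 to 6.95 ± 0.447 CPM (1.02, adjusted p = 4.88e-05), and the thioredoxin-related genes TMX4 (0.52) and TMX1 (0.43) and the selenoprotein gene SELENOF (0.47) were higher in both fits. The sulfhydryl oxidase genes QSOX1 (-0.86) and QSOX2 (-0.83), the J-domain gene DNAJC1 (-0.60) and PRKCSH, the regulatory subunit of glucosidase II (-0.99, or -0.19 with the GC offset), were lower. The other ERAD genes counted 14 lower and 8 higher of 33 tested, and their share of higher calls was thus no larger than the 28.8% over all genes. RAD23B, a carrier of ubiquitinated proteins, rose by 0.42 on the log2 scale (0.15 with the GC offset). NGLY1, which strips N-glycans in the cytosol, was higher in both fits (0.42 and 0.14). MAN1A1 (0.36) and UBQLN1 (0.26) were higher as deposited and not called with the GC offset. DNAJB2 (-1.70), UBXN6 (-1.38) and the ligase gene RNF185 (-0.57) were lower in both fits, UBXN6 at -0.15 with the GC offset. Some genes outside the naming rule are given after their values were seen. UBE2J2 (-0.36 as deposited, 0.33 with the GC offset) and BAG6 (-0.51 and 0.11) were called in opposite directions by the 2 fits, as MBTPS2 was. Among partners of HRD1, ERLEC1 (-0.07), FAM8A1 (-0.01), UBE2J1 (0.08) and AUP1 (0.05) were not called as deposited. The first 3 were lower with the GC offset (-0.33, -0.30 and -0.21) and AUP1 higher (0.51).

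The MYC libraries did not stand equally far from the controls. MYC library 3 had the lowest CPM of the 3 MYC libraries in 25 of the 42 genes and in 16 of the 20 called lower. This was not counted over all genes, so it is not shown to be particular to the 42. On principal component 1, MYC libraries 1 to 3 stood at 56.9, 57.8 and 74, and control libraries 1 to 3 at -61.2, -66.4 and -61. On the second component, which held 9.4% of the variance, MYC libraries 1 to 3 stood at -41.2, 3.61 and 32.7. Leaving out MYC library 3 gave 19 lower and 12 higher calls of the 42 and a median log2 fold change of -0.13 in place of -0.18. Over all 18439 genes tested in that fit, 5573 were lower and 5075 higher, with a median of -0.02. The values of SDF2L1 (-1.45), CRELD2 (-0.79), SIL1 (-0.52), SYVN1 (-0.84), HYOU1 (-0.50), MZB1 (0.41) and NPLOC4 (-0.28) moved most without MYC library 3. With the replicate number as a block, 19 were lower and 10 higher, beside 30.4% and 26.3% of all genes (56.7% together).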

How the data were processed

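RNA was measured in 6 libraries of U266, grouped by the labels into 3 control and 3 MYC. Per the labels' protocols, poly-A RNA went into libraries by a kit without strand marking. The submitters' processing notes name cutadapt, TopHat2 and the build GRCh37; their versions and the annotation were not given. The gene tables, from RSEM per the file headers, hold the authors' deposited expected count (an estimate that splits shared reads between genes), TPM (scaled for length and depth) and mean and effective transcript length per gene and library. Symbols matched 51996 of 57820 identifiers, with 98.3% of the counts.

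Rounded expected counts entered edgeR 4.0.16 under R 4.3.3 (filterByExpr, TMM factors, group only, quasi-likelihood F test, Benjamini-Hochberg adjustment over 17679 genes, called at an adjusted p under 0.05). The script was tested on simulated data. SEs come from the F statistic. Alternatives were RLE factors, total counts, DESeq2 1.42.0, limma 3.58.1 (voom, or trend on log2(TPM + 1) and log2(TPM + 0.1)), an effective length offset, no filter, mean CPM above a minimum of 5, a GC offset (loess span 0.4 on the GC of GENCODE 29 transcripts, matched by identifier), a replicate block, that block with the GC offset, and each library left out. Overlapping genes come from GENCODE 29 models, which may differ from the authors' annotation.

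Reads carry no molecular identifiers, and errors are the spread between libraries. Libraries of a group differed by more than counting noise (chi-square over degrees of freedom, 8.74 or above). All 42 genes were described, as were MYC, XBP1, EIF2AK3, ATF6B, ATF4, DDIT3 and, in each of 3 groups of other pathway genes, up to 4 called genes per direction by smallest adjusted p, of which 1 is not reported here. Promoters to print were up to 3 ERSE genes by control TPM. Genes whose effective length differed by over 1.5 times were also given in TPM. The members, lists and settings were chosen with earlier results of these data known. Protein sequences were not used here.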

Additional observations from a re-analysis of the deposited data

How the results depend on the processing

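Over the 42 genes and all 18 alternatives, 651 of 755 values kept their direction and their side of the threshold, 38 gained and 31 lost a call, 22 changed sign with a call in either fit, and 13 changed sign with no call in either. The count of lower genes ran from 17 (effective length offset, where 29.0% of all genes were lower) to 26 (GC offset, 32.7%) and of higher genes from 7 to 12. With single libraries left out these counts ran from 18 to 22 and from 7 to 12, and the median from -0.21 to -0.13. Over all genes tested, 17589 to 18584 in those fits, 4925 to 5809 were lower and 4184 to 5076 higher. Pathway genes called higher fell from 20 to 10 on log2(TPM + 1) and on log2(TPM + 0.1), to 13 with the GC offset and to 13 with that offset and the replicate block, and ran from 14 to 19 with single libraries left out. With the GC offset, and with it and the block, signs of members turned with a call in either fit for HSPA5 (-0.24 and -0.24), HSP90B1 (-0.16 and -0.16), SDF2L1 (0.01 and 0.01), CANX (-0.02 and -0.02) and EDEM3 (-0.22 and -0.21). Among pathway genes of the naming rule they turned so for MBTPS2 (-0.12 and -0.12) and UBQLN1 (-0.02 and -0.02). PPIB (0.09) and ATF4 (0.08) also turned with the GC offset, with no call in either fit. Of the 73 pathway genes tested, 17 turned sign with the GC offset, and 3 of these (MBTPS2, UBE2J2 and BAG6) were called in opposite directions. On log2(TPM + 1), log2(TPM + 0.1) and with the length offset, signs of members turned with a call in either fit for SIL1 (0.18, 0.19 and 0.22), CANX (-0.15, -0.15 and -0.12), DERL1 (0.13, 0.13 and 0.16) and NPLOC4 (0.03, 0.03 and 0.06). The cause was not tested. Same-numbered libraries did not deviate together (correlations of -0.047, 0.078 and 0.11), so the numbers were not taken as pairs. With the replicate block, 19 genes were lower and 10 higher. The shallowest MYC library, 5.85-fold below the deepest, limits precision for scarce genes such as ERO1B.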
